A study of Rattus norvegicus with 6 samples.

Results

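The integrated stress response and the unfolded protein response were followed through 37 genes in HEI-OC1, an established cell line that originated in the auditory organ of the inner ear. The genes were taken by symbol from a list that names them without a threshold on their values, although the list was drawn up with earlier results of these data known, and all 37 had a row among the 18718 genes of the count table. They comprised 5 transducers of the responses, 20 genes known as targets of the transcription factor ATF4, and 12 genes of the endoplasmic reticulum (ER) that fold proteins or remove misfolded ones. The cells had received an siRNA against Hnrnpd, which encodes the RNA-binding protein AUF1 (3 libraries, siHnrnpd 1 to 3), or a control siRNA (3 libraries, control 1 to 3). All 6 libraries came from this 1 cell line, cultured at 37 °C in serum-containing medium under 5% CO2, and the labels name no added stressor. The labels name rat as the organism, although HEI-OC1 is widely described as murine, and which species the reads came from was not tested. Whether replicates were separate cultures is not stated, so every p-value reflects the spread among these libraries, possibly technical. In bulk RNA, fewer cells in a state and less RNA per cell cannot be told apart.

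The libraries held 28984535 to 35842904 counts, 5.16 to 7.04% of them on mitochondrial genes. The siRNA target had 319, 303 and 269 CPM (read counts scaled to a common library size) in controls 1 to 3 and 177, 200.2 and 183 CPM in siHnrnpd 1 to 3, so the knockdown left 62.8% of the control level and siHnrnpd 3 lay between the other 2 treated libraries. The labels call the cells auditory, but the hair cell markers Gfi1, Slc26a5, Slc17a8 and Espn had at most 4 counts in any library, Otof had 2 to 7, Myo7a 2 to 18, Cdh23 13 to 37 and Myo6 1101 to 1225. Of the macrophage list, Ptprc, Adgre1, Csf1r and Itgam had at most 4 counts in a library, while Lyz2 had 8 to 17, Aif1 15 to 42, Cd68 72 to 93 and Cd14 1679 to 2348. Of the endothelial list, Kdr and Emcn had at most 1 count and Cdh5 1 to 6, while Tek had 39 to 63. Of the fibroblast list, Dcn and Postn had at most 10 counts, Col1a2 94 to 131 and Lum 247 to 282. The others were higher, led by Col1a1 (55635 to 95503) and Fn1 (36332 to 56340). In the supporting cell list Prox1 had at most 2 counts, Fgfr3 64 to 117, and Hes1 the most, 813 to 1426. Sox2, Hes5, Gjb2, Gjb6, Pou4f3, Atoh1, Pvalb and Pecam1 were not found by symbol or synonym and are not in the sums. The summed hair cell list lay at 34.4 to 42.0 CPM in control and 33.1 to 37.8 CPM in siHnrnpd, the macrophage list at 61.3 to 66.2 CPM in control and 69.6 to 72.7 CPM in siHnrnpd, the endothelial list at 1.55 to 1.92 CPM in control and 1.37 to 2.05 CPM in siHnrnpd, the fibroblast list at 4033 to 4540.4 CPM in control and 4366 to 5411 CPM in siHnrnpd and the supporting cell list at 89.3 to 95.6 CPM in control and 92.0 to 112 CPM in siHnrnpd. Single genes carried some of these sums. Myo6 made up most of the hair cell sum, with means of 36.7 CPM in control and 34.3 CPM in siHnrnpd. Cd14 made up most of the macrophage sum, with means of 60.9 and 67.4 CPM. Of the scarcer macrophage markers tested, Cd68 and Lyz2 had negative log2 changes (-0.11 and -0.46) and Aif1 a positive one (0.35).

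Stress on protein folding or amino acid supply reaches these genes by 2 main routes. In the integrated stress response, kinases such as PERK (encoded by Eif2ak3) phosphorylate the initiation factor eIF2, general translation slows, and translation of ATF4 increases, which then switches on genes of amino acid synthesis, amino acid uptake and tRNA charging. In the unfolded protein response, IRE1 (Ern1) splices the Xbp1 mRNA and ATF6 is cut at the Golgi, and both products raise the chaperones and degradation factors of the ER. Phosphorylation, splicing, cleavage and translation are not visible in gene-level RNA counts, so the RNA levels of the target genes are described here. Whether those levels follow the activity of the 2 routes was not tested.

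The promoters are shown for 5 members because they hold matches to known response elements of the 2 arms. All are rat sequences. If the cells are murine, the letters, sites and positions given here need not be those of the cells measured. Windows from 250 bases before to 50 after the gene start, from RefSeq on the rat build GRCr8, were matched for 30 of the 37 members (28 by symbol, 2 by synonym). Slc3a2, Gars, Pdia6, Manf, Hyou1, Atf6 and Ern1 were not matched. Each sequence runs 5′ to 3′ over the 250 bases before the start, and capitals mark a motif match. Hspa5 lies at chr3:38452766-38453015 (plus strand), Hsp90b1 at chr7:23012294-23012543 (minus), Herpud1 at chr19:10614708-10614957 (minus), Chac1 at chr3:126795881-126796130 (plus) and Trib3 at chr3:161275534-161275783 (minus).
Hspa5: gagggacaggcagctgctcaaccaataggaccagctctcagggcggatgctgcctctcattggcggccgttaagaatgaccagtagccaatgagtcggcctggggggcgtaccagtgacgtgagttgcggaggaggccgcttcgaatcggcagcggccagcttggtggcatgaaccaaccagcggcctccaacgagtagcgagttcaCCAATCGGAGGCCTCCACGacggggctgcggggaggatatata
Hsp90b1: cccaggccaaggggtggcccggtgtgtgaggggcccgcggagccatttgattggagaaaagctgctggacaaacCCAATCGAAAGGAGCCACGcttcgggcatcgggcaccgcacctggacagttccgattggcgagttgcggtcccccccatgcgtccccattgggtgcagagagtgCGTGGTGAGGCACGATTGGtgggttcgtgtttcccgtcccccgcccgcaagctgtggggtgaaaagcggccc
Herpud1: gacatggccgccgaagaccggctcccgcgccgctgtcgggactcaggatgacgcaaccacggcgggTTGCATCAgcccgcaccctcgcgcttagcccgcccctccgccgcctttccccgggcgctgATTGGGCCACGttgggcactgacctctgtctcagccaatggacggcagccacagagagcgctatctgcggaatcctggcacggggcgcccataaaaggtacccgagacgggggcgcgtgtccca
Chac1: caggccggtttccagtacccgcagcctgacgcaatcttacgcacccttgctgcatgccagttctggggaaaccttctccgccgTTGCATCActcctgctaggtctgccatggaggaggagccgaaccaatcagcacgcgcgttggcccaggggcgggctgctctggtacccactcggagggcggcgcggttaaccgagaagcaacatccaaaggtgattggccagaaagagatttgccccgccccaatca
Trib3: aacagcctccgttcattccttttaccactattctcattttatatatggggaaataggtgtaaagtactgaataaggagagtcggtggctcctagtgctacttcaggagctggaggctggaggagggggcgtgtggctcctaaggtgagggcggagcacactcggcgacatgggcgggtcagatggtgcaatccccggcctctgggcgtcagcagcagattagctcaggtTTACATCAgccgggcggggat

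Both strands were searched for 4 motifs. The ER stress response element (ERSE), the element of ATF6 and NF-Y, was searched as CCAAT and CCACG with 9 bases between them. It was found in 3 of 9 matched ER promoters (Hspa5, Hsp90b1 and Creld2), in 0 of 18 matched ATF4 target promoters and in 1 of 3 matched transducer promoters (Xbp1), against 0.0657% of all 33469 promoter windows. The sites are compared here in the motif's own direction, with the fixed bases in capitals.
Hspa5: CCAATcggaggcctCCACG
Hsp90b1, first: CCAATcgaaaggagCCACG
Hsp90b1, second: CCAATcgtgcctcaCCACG
Creld2: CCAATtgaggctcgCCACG
Xbp1: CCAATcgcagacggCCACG

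The core of the C/EBP-ATF response element (CARE), which ATF4 binds with C/EBP partners, was searched as TGATGNAA. It was found in 3 of 18 matched ATF4 target promoters (Trib3, Chac1 and Aars) and in 1 of 9 ER promoters (Herpud1), against 3.98% of all windows. Herpud1 also held the related ERSE-II, searched as ATTGG and CCACG 1 base apart, which 0.0508% of all windows hold, so its window held matches to motifs of both arms. The core of the unfolded protein response element (UPRE), TGACGTGG, was in 0 of the 30 windows, against 0.595% of all. No match overlapped another. Many ATF4 sites are known to lie outside such a window, and a match is a description of the letters, not of binding.

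**Figure D1:**
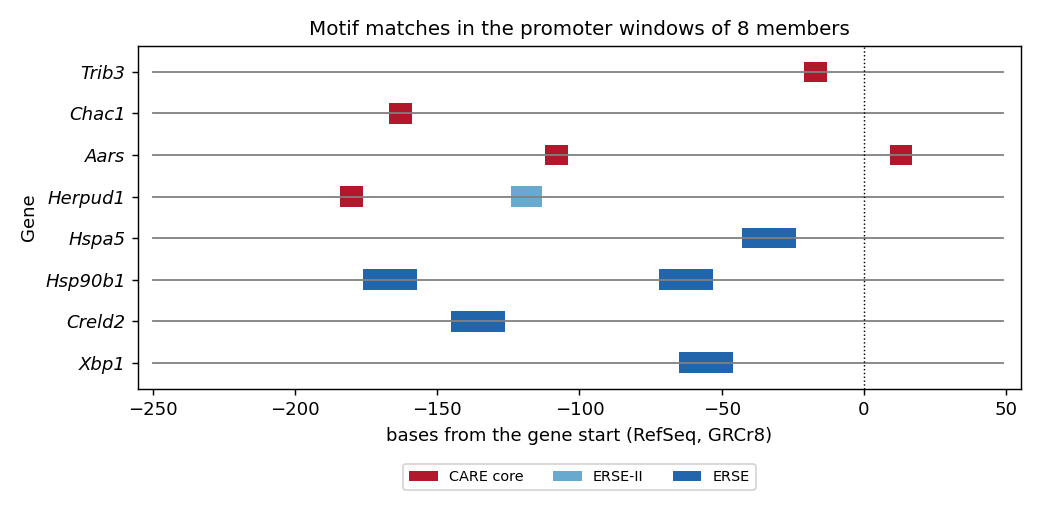
Matches to the motifs in the windows of the 8 members that held one, on an axis of bases from the gene start (dotted line). CARE core matches (red) are seen in Trib3, Chac1, Aars and Herpud1, ERSE matches (blue) in Hspa5, Hsp90b1, Creld2 and Xbp1, and the ERSE-II match (light blue) in Herpud1.

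By the authors' FPKM, which scales for gene length, the most abundant member in control cells was Pdia6, an ER disulfide isomerase, at 354 ± 2.37 FPKM (SD, n = 3). Atf4 followed at 341 ± 3.58 FPKM, and Hspa5, the ER chaperone BiP, at 328 ± 25.1 FPKM, so Atf4 and Hspa5 differed by less than the SD of Hspa5. Hsp90b1, the ER chaperone GRP94, had 275 ± 25.3 FPKM. The sensors were scarce by comparison: Atf6 had 6.63 ± 0.504 FPKM, Eif2ak3 3.28 ± 0.370 FPKM and Ern1 1.14 ± 0.0737 FPKM. Vldlr, a lipoprotein receptor, was the lowest member at 0.577 ± 0.131 FPKM. Whether reads of all genes aligned equally well was not tested, so the ranks between genes hold for these FPKM only. All 37 members passed the filter on low counts.

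The group comparison asks whether reducing Hnrnpd changes these transcripts. None of the 37 members was called at an adjusted p under 0.05 by edgeR's quasi-likelihood test, nor by DESeq2, where edgeR called 0.0815% of 12268 genes and DESeq2 1.41% of the 11453 it could adjust. At an unadjusted p under 0.05, Atf6 and Phgdh (2 members) were higher and 0 members lower, against 5.84% and 5.20% of all genes. The siHnrnpd libraries lay wholly above the controls in 2 members, Slc7a11 and Ern1, against 8.42% of all genes, and wholly below them in 0, against 8.57%. Positive log2 changes were found in 30 of 37 members, against 51.7% of all genes, and the median was 0.11 against 0.0054 for all genes. The count depended on single libraries: 21 members were positive without siHnrnpd 1, where 52.8% of all genes were, and 35 without siHnrnpd 3, where 47.3% were.

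**Figure D2:**
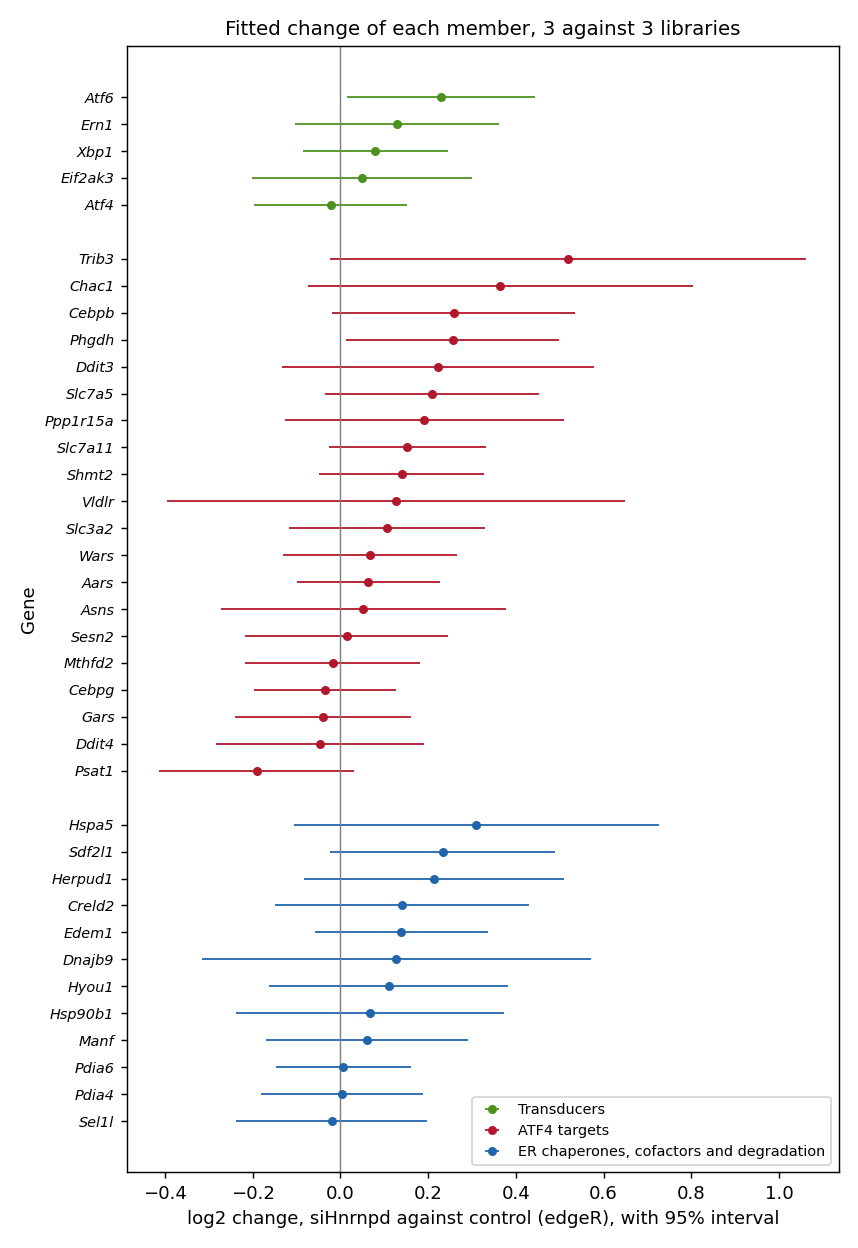
Fitted log2 change of each member between 3 siHnrnpd and 3 control libraries (points) with its 95% interval (lines), by class. Most points lie to the right of 0, and the intervals of Atf6 and Phgdh alone exclude it without adjustment.

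Among the transducers, the Atf4 mRNA was the most abundant. Atf4 had 559, 573 and 561 CPM in controls 1 to 3 and 606, 559 and 502 CPM in siHnrnpd 1 to 3. The 3 controls lay within a narrow band, siHnrnpd 1 was above it, siHnrnpd 3 below it and siHnrnpd 2 at its lower edge, and the log2 change was -0.022 (SE 0.078, edgeR adjusted p = 0.941) with a 95% interval of -0.20 to 0.15. Xbp1 mRNA, the substrate of IRE1, had 63.0, 64.4 and 62.7 CPM in controls 1 to 3 and 72.8, 65.4 and 62.6 CPM in siHnrnpd 1 to 3, a log2 change of 0.080 (SE 0.073, edgeR adjusted p = 0.731). Only siHnrnpd 1 stood clear of the others. These counts do not separate the spliced form of Xbp1 from the unspliced one.

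Atf6 had the smallest p of all members, with 39.6, 36.1 and 33.7 CPM in controls 1 to 3 and 46.5, 44.1 and 37.6 CPM in siHnrnpd 1 to 3. Its 2 highest libraries were siHnrnpd 1 and 2, siHnrnpd 3 lay below control 1, and the log2 change was 0.23 (SE 0.096, edgeR adjusted p = 0.432). Ern1 had 9.48, 8.75 and 9.58 CPM in controls 1 to 3 and 10.4, 10.4 and 9.58 CPM in siHnrnpd 1 to 3. All 3 treated libraries were above all 3 controls, but siHnrnpd 3 exceeded control 3 by less than the spread of the controls, and the log2 change was 0.13 (SE 0.10, edgeR adjusted p = 0.683). Eif2ak3 had 17.2, 19.6 and 15.1 CPM in controls 1 to 3 and 16.8, 19.3 and 17.7 CPM in siHnrnpd 1 to 3, with the groups fully interleaved and a log2 change of 0.050 (SE 0.11, edgeR adjusted p = 0.902).

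Among the transcription factors and feedback regulators downstream of ATF4, Trib3, a pseudokinase that restrains ATF4 signalling, spread most. It had 48.6, 56.2 and 52.3 CPM in controls 1 to 3 and 99.2, 83.2 and 42.6 CPM in siHnrnpd 1 to 3. siHnrnpd 1 and 2 stood well above the controls and siHnrnpd 3 below all of them, and the log2 change of the group was 0.52 (SE 0.24, edgeR adjusted p = 0.463), with a 95% interval of -0.024 to 1.06. Chac1, which degrades glutathione and is induced through ATF4, had 22.4, 25.1 and 27.8 CPM in controls 1 to 3 and 39.6, 36.0 and 21.3 CPM in siHnrnpd 1 to 3. The same order appeared, with siHnrnpd 3 the lowest of the 6, and a log2 change of 0.36 (SE 0.20, edgeR adjusted p = 0.528). The control libraries gave a coefficient of variation of 7.26% for Trib3 and 10.7% for Chac1, and the siHnrnpd libraries 38.9% and 30.0%.

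Ddit3, which encodes the pro-apoptotic factor CHOP, had 68.5, 82.4 and 80.8 CPM in controls 1 to 3 and 110.3, 93.6 and 66.6 CPM in siHnrnpd 1 to 3. Again siHnrnpd 1 and 2 were the 2 highest libraries and siHnrnpd 3 the lowest, and the log2 change was 0.22 (SE 0.16, edgeR adjusted p = 0.639). Ppp1r15a (GADD34), the phosphatase subunit that reverses eIF2 phosphorylation, shared that order, with a log2 change of 0.19 (SE 0.14, edgeR adjusted p = 0.654). Cebpb, a C/EBP factor, had 279.7, 329.6 and 407 CPM in controls 1 to 3 and 439.7, 395 and 381 CPM in siHnrnpd 1 to 3. Here it was control 1 that lay low, siHnrnpd 3 lay within the controls, and the log2 change was 0.26 (SE 0.12, edgeR adjusted p = 0.476). Cebpg, the usual dimer partner of ATF4, had a log2 change of -0.036, Ddit4 (REDD1), an inhibitor of mTORC1, one of -0.047, and Sesn2, a leucine sensor, one of 0.014. The scarce Vldlr had a log2 change of 0.13 with a 95% interval of -0.39 to 0.65.

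The enzymes of serine and one-carbon metabolism differed among themselves. Phgdh, the first enzyme of serine synthesis, had 168, 178 and 182 CPM in controls 1 to 3 and 243, 213 and 175 CPM in siHnrnpd 1 to 3. siHnrnpd 1 and 2 were above the controls and siHnrnpd 3 lay inside their range, for a log2 change of 0.26 (SE 0.11, edgeR adjusted p = 0.433). Psat1, the next enzyme of the same pathway, had 278, 269 and 233 CPM in controls 1 to 3 and 232, 251 and 199 CPM in siHnrnpd 1 to 3. Its fitted value had the opposite sign, with siHnrnpd 3 the lowest library and siHnrnpd 1 just below control 3, at a log2 change of -0.19 (SE 0.099, edgeR adjusted p = 0.509). Shmt2, the mitochondrial serine hydroxymethyltransferase, had 279, 295 and 312 CPM in controls 1 to 3 and 350.4, 336 and 289 CPM in siHnrnpd 1 to 3, a log2 change of 0.14 (SE 0.084, edgeR adjusted p = 0.566). Again siHnrnpd 1 and 2 exceeded the controls while siHnrnpd 3 lay among them.

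Mthfd2, the mitochondrial folate enzyme that follows Shmt2, had a log2 change of -0.018, and Asns, asparagine synthetase, one of 0.052. For Asns the siHnrnpd libraries spread from 61.6 to 95.9 CPM around controls of 72.5 to 83.8 CPM, so the treated libraries lay on both sides of the controls.

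Of the amino acid transporters, Slc7a11, the cystine carrier of system xc-, had 19.6, 18.8 and 20.1 CPM in controls 1 to 3 and 21.1, 21.3 and 22.8 CPM in siHnrnpd 1 to 3. All 3 treated libraries were above all 3 controls and siHnrnpd 3 was the highest, the only member for which that library was on top, at a log2 change of 0.15 (SE 0.080, edgeR adjusted p = 0.514). Counting error at the lowest count of Slc7a11 was 4.19%, above the 3.44% coefficient of variation of its controls. Slc7a5, the large neutral amino acid carrier LAT1, had 109.9, 115 and 122 CPM in controls 1 to 3 and 151, 140.0 and 110.2 CPM in siHnrnpd 1 to 3, a log2 change of 0.21 (SE 0.11, edgeR adjusted p = 0.514). Its siHnrnpd 3 value lay just above the lowest control. Slc3a2, the heavy chain that both carriers need, had a log2 change of 0.11, with siHnrnpd 3 the lowest library. The tRNA synthetases Aars, Wars and Gars, for alanine, tryptophan and glycine, had log2 changes of 0.064, 0.068 and -0.040.

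Within the ER arm, Hspa5 had the widest excursion. Its libraries held 1056, 1014 and 889.9 CPM in controls 1 to 3 and 1479, 1371 and 818 CPM in siHnrnpd 1 to 3. siHnrnpd 1 and 2 lay above every control and siHnrnpd 3 below every control, and the log2 change was 0.31 (SE 0.19, edgeR adjusted p = 0.564), with a 95% interval of -0.11 to 0.73. Sdf2l1, an ER cofactor of BiP, had 107, 124 and 126 CPM in controls 1 to 3 and 161, 142 and 117 CPM in siHnrnpd 1 to 3, a log2 change of 0.23 (SE 0.11, edgeR adjusted p = 0.491). There siHnrnpd 3 lay inside the control range. Herpud1, a membrane protein of ER-associated degradation, had 81.1, 83.0 and 82.6 CPM in controls 1 to 3 and 112, 101 and 73.0 CPM in siHnrnpd 1 to 3. Its controls were nearly identical (coefficient of variation 1.17%), while the siHnrnpd libraries gave 21.0%, with siHnrnpd 3 below all controls, and the log2 change was 0.21 (SE 0.13, edgeR adjusted p = 0.579).

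The other ER members gave log2 changes from -0.020 (Sel1l, the adaptor of the Hrd1 ligase) to 0.14 (Creld2, a secreted ER stress protein). Hyou1, the ER chaperone GRP170, had 0.11, Hsp90b1 0.068, Manf, a secreted ER protein, 0.060, Edem1, which marks misfolded glycoproteins for removal, 0.14, and Dnajb9, a J-domain partner of BiP, 0.13. The disulfide isomerases Pdia4 and Pdia6 were nearest to 0 at 0.0037 and 0.0068, with 95% intervals of -0.18 to 0.19 and -0.15 to 0.16. In Pdia6, the controls lay within 728 to 741 CPM, and even there siHnrnpd 1 was the highest library (782 CPM) and siHnrnpd 3 the lowest (689 CPM).

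**Figure D3:**
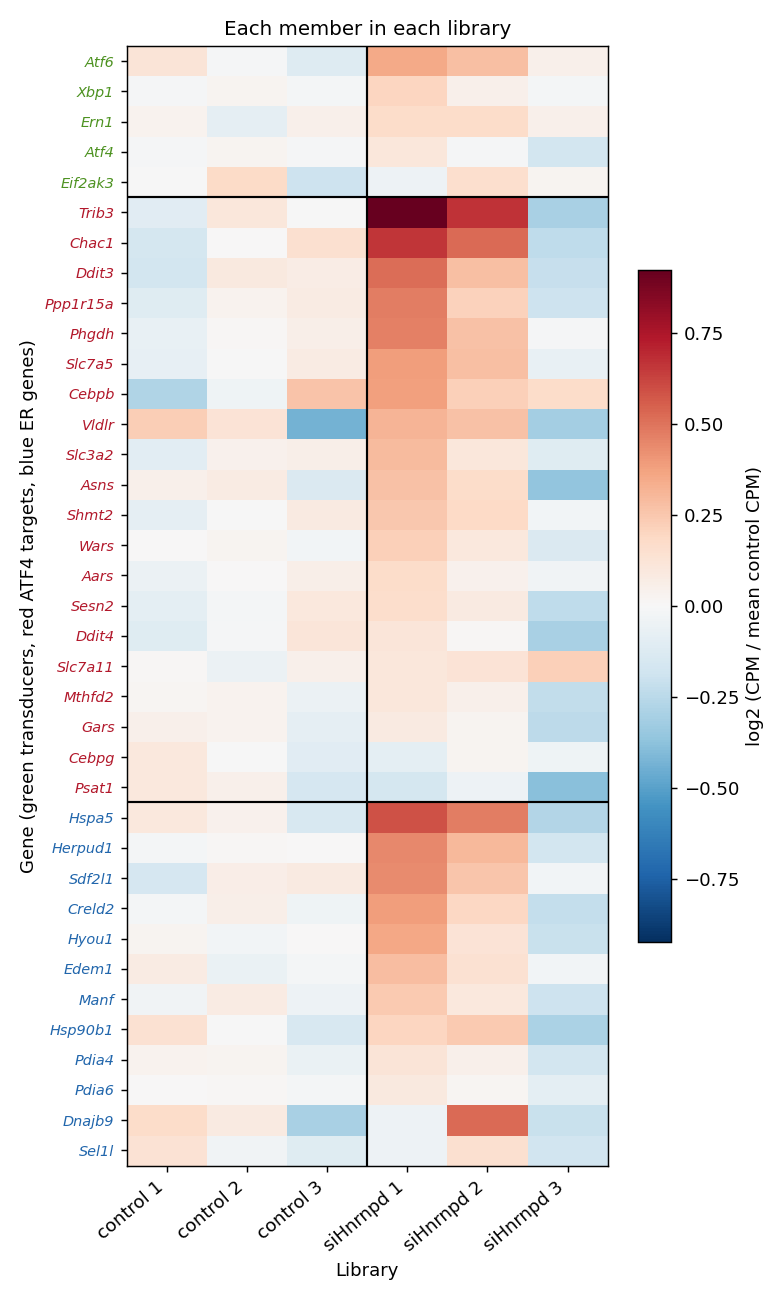
Each member (rows, by class) in each library (columns), coloured by log2 of its CPM over the mean control CPM. The siHnrnpd 1 and 2 columns are mostly red and the siHnrnpd 3 column mostly blue, in the ATF4 target block as in the ER block, with Slc7a11, Cebpb and Psat1 among the exceptions.

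The ATF4 targets and the ER genes were then set side by side. The median log2 change was 0.12 over the 20 ATF4 targets (15 positive) and 0.12 over the 12 ER genes (11 positive), a difference of -0.0025. The average log2 CPM of the ATF4 targets, taken from the control average, was 0.28, 0.18 and -0.15 in siHnrnpd 1, 2 and 3, and that of the ER genes was 0.26, 0.22 and -0.17. The controls lay at -0.039, 0.028 and 0.011 for the ATF4 targets and at 0.040, 0.023 and -0.063 for the ER genes. Both arms thus stood above all controls in siHnrnpd 1 and 2 and below all controls in siHnrnpd 3. The gap between the arms was 0.029, -0.032 and 0.021 in siHnrnpd 1 to 3, inside the controls' -0.079 to 0.074. By role, the median was 0.16 for 6 stress effectors, 0.22 for 3 transcription factors, 0.15 for 3 transporters, 0.052 for 5 enzymes and 0.064 for 3 tRNA synthetases, and 0.11 and 0.14 for 9 folding and 3 degradation members of the ER. The medians of both arms moved with single libraries: without siHnrnpd 1 they were 0.012 and -0.0011, and without siHnrnpd 3 they were 0.20 and 0.22.

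**Figure D4:**
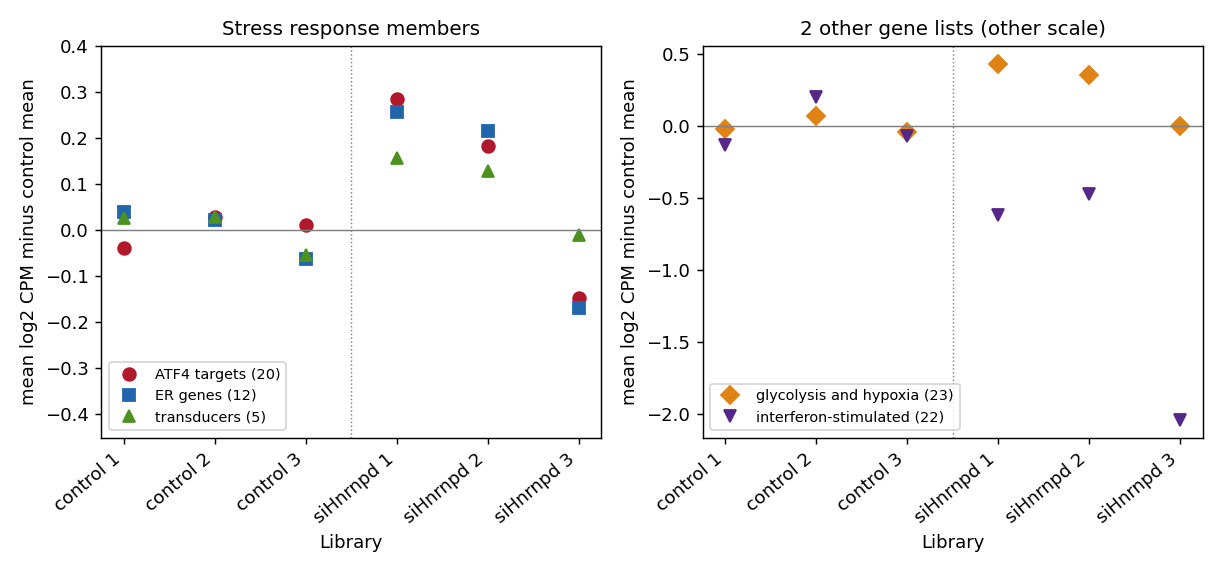
Mean log2 CPM of gene lists in each library relative to the control mean, with the number of genes in brackets. On the left, the ATF4 targets and the ER genes lie together in every siHnrnpd library, above 0 in siHnrnpd 1 and 2 and below it in siHnrnpd 3. On the right, on another scale, are lists chosen because these libraries were known to stand apart in them. Glycolysis and hypoxia genes lie above 0 in siHnrnpd 1 and 2 and near it in siHnrnpd 3, and interferon-stimulated genes are lowest in siHnrnpd 3.

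The treated libraries differed from each other more than the controls did, a description chosen after the values were seen. The SD was larger among the siHnrnpd libraries than among the controls in 34 of 37 members (18 of 20 ATF4 targets and 12 of 12 ER genes), against 51.0% of all genes. The median coefficient of variation of the members was 5.80% in control and 13.8% in siHnrnpd, while over all genes it was 8.39% and 8.32%. siHnrnpd 1 was the highest of the 6 libraries in 29 members, against 22.7% of all genes, and siHnrnpd 3 the lowest in 23, against 18.3%. In 17 members siHnrnpd 1 and 2 both lay above every control while siHnrnpd 3 lay below every control, an order held by 2.06% of all genes. These 17 were 8 ATF4 targets, 8 ER genes and Xbp1. Expressed as a ratio, siHnrnpd 1 exceeded siHnrnpd 3 by 2.33-fold for Trib3, 1.86-fold for Chac1, 1.81-fold for Hspa5, 1.66-fold for Ddit3 and 1.53-fold for Herpud1, and by 1.21-fold for Atf4 itself. Members share the libraries, so these counts are not independent of each other.

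**Figure D5:**
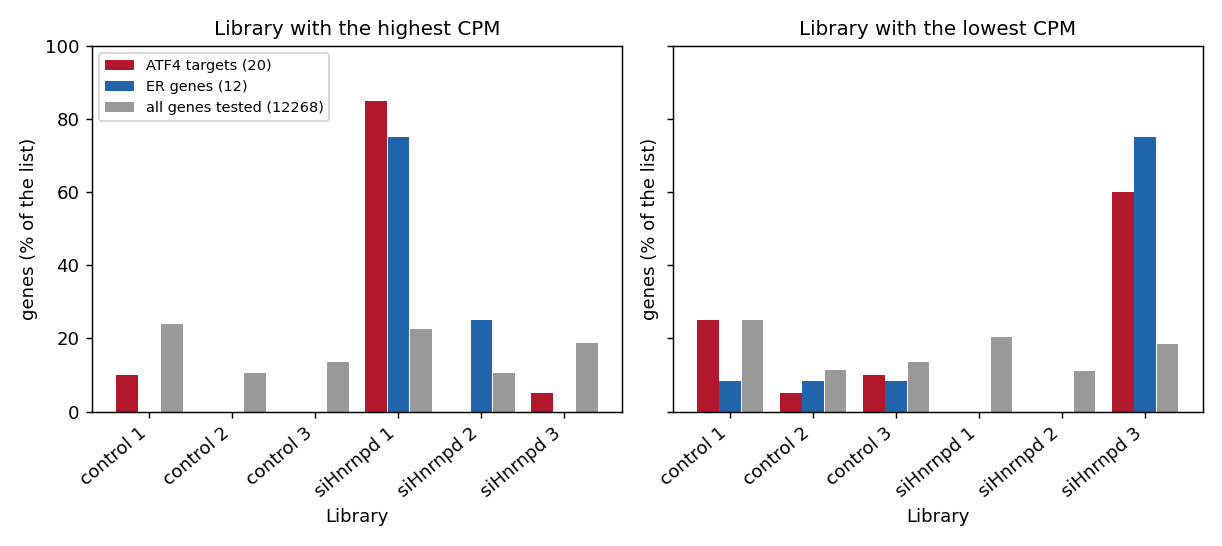
Share of genes (bars, from 0) for which each library had the highest (left) or the lowest (right) CPM of the 6, for ATF4 targets, ER genes and all genes tested. siHnrnpd 1 is highest and siHnrnpd 3 lowest for most members of both arms, while all genes are spread over the 6 libraries.

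Leaving out siHnrnpd 3 left siHnrnpd 1 and 2 as the treated libraries and changed the comparison. siHnrnpd 3 had been seen to be the lowest library in 23 members, Trib3 among them. In those members its removal raises the fitted change by construction. Trib3 was then called, with a log2 change of 0.79 (edgeR adjusted p = 0.0429), in a fit that called 0.113% of its 12444 genes, and it was the single member called. Hspa5 (0.52), Chac1 (0.58) and Herpud1 (0.36) followed, with edgeR adjusted p of 0.0740, 0.0886 and 0.0997. At an unadjusted p under 0.05 that fit held 16 members on the higher side and 0 on the lower, against 4.93% and 5.47% of its genes. Each of the other 5 libraries was left out in the same way, and few members then reached an unadjusted p under 0.05. There were 0 members without siHnrnpd 1, against 8.23% of its genes, and 0 without control 2, against 5.82%. Without siHnrnpd 2 there was 1 (Psat1, lower), against 11.2%, and without control 1 there was 1 (Atf6, higher), against 7.75%. Without control 3 there were 3 (Cebpb and Phgdh higher, Psat1 lower), against 15.5%. Hnrnpd had 177, 200 and 183 CPM in siHnrnpd 1 to 3. The share of mitochondrial counts was 5.16, 6.52 and 5.52% in siHnrnpd 1 to 3 and 5.27 to 7.04% in the controls. siHnrnpd 1 thus lay below every control in that share. The TMM scaling factor was 0.985, 0.994 and 1.03 in siHnrnpd 1 to 3 and 0.982 to 1.01 in the controls. Whether any of these bears on the result was not tested. The glycolysis and interferon lists were chosen because these treated libraries were already known to stand apart in them. Their movement with the same libraries is therefore no independent finding, and their part in the result was not tested. The glycolysis and hypoxia list lay at 0.43, 0.35 and 0.0012 relative to the control mean in siHnrnpd 1 to 3, and the interferon-stimulated list at -0.62, -0.47 and -2.04.

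The wider pathway was read from 5 further lists. Of 23 other genes of the integrated stress response, 20 were tested, 14 were positive and the median was 0.071. None was called by edgeR or DESeq2. At an unadjusted p under 0.05, 2 of the 20 were higher and 0 lower, against 5.84% and 5.20% of all genes. The 2 were Lonp1, a mitochondrial protease, and Gdf15, a secreted stress factor. Lonp1 had 160.2 ± 3.17 CPM in the controls against 187 ± 24.1 CPM with the siRNA (mean ± SD, n = 3 per group), for a log2 change of 0.23 (edgeR adjusted p = 0.423). Gdf15 was scarce, with 13 to 122 counts in a library and a log2 change of 1.35 (edgeR adjusted p = 0.443). Pck2, the mitochondrial PEP carboxykinase, had 0.23 and Klhl24 -0.42. That list's mean followed the same libraries, at 0.28, 0.13 and -0.21 in siHnrnpd 1 to 3. The 19 other tRNA synthetase and scaffold genes had a median of 0.013. At an unadjusted p under 0.05, 0 of them were higher and 0 lower, against the same 5.84% and 5.20% of all genes. Eprs had the smallest p, at a log2 change of 0.13 (edgeR adjusted p = 0.495).

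Genes that set eIF2 activity had a median of -0.016 over 14 tested, with 4 positive, 0 called and, at an unadjusted p under 0.05, 1 in each direction, against the same 5.84% and 5.20% of all genes. Eif2ak1, the haem-regulated eIF2 kinase, had 51.3 ± 3.05 CPM in the controls against 44.7 ± 0.0847 CPM with the siRNA (mean ± SD, n = 3 per group), for a log2 change of -0.20 without overlap of the groups (edgeR adjusted p = 0.342). Impact, an inhibitor of the kinase GCN2, had 0.25, and Eif2ak2 (PKR), itself induced by interferon, -0.54 (edgeR adjusted p = 0.380 and 0.452). Other ER folding and translocation genes had a median of 0.0062 over 28 tested, with 0 called and, unadjusted, 1 on the higher and 2 on the lower side at a p under 0.05 (5.84% and 5.20% of all genes). The lower ones were Fkbp11, an ER prolyl isomerase, at -0.22 and Dnajc1 at -0.20, and the higher one was Txndc11 at 0.22. Their list mean in siHnrnpd 1 to 3 was 0.0023, 0.079 and -0.10, against 0.049, 0.032 and -0.081 in the controls. Other degradation and transducer genes had a median of 0.036 over 22 tested, with 0 called and 2 higher at an unadjusted p under 0.05, against 5.84% of all genes. These were Creb3l2, an ER-anchored factor related to ATF6, at 0.53, and the ubiquitin-conjugating enzyme Ube2j1 at 0.18, with edgeR adjusted p of 0.310 and 0.407.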

How the data were processed

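Per the submitters' processing notes, reads were aligned with TopHat2 and the build named is mRatBN7.2. The sources used here do not give the counter, its strand setting or the annotation, so reads of overlapping genes cannot be told apart. One deposited table has raw counts of reads for each gene, and the deposited FPKM table holds values computed by the authors for 18628 genes. Columns were matched to samples by siRNA name and replicate number.

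The test was edgeR's quasi-likelihood fit on group (version 4.0.16, R 4.3.3), after filterByExpr and TMM scaling, with Benjamini-Hochberg adjustment over 12268 genes. An SE is the log2 change over the square root of its F, and 95% intervals use the fit's degrees of freedom. List means are of log2 CPM with a prior count of 2. Alternatives used DESeq2 1.42.0 and limma 3.58.1, among others. The members, the lists and the naming rule (all members, libraries shown for the 12 smallest p, the transducers, Ddit3 and Hspa5, up to 4 genes of each other list) were chosen with earlier results of these data known.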

Additional observations from a re-analysis of the deposited data

How the results depend on the processing

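Counts of called genes depended on the fit, while no member was called outside the fit without siHnrnpd 3. Of all genes, edgeR called 10, DESeq2 162, edgeR with no filter 147, edgeR with upper-quartile scaling 6 and limma on log2(FPKM + 0.1) 5. Limma on log2(FPKM + 1) called 0 with a minimum level and 0 without. Leaving out 1 library gave 0 to 14 called genes and 0 to 1 called members, the 1 being Trib3. With the replicate number as a block, 0 genes and 0 members were called. Same-numbered libraries deviated together by r of -0.26, 0.14 and 0.10 across genes, and differently numbered ones by -0.33 to 0.23. Deviations from the mean of 3 libraries constrain each other, so these values cannot settle whether the numbers pair the libraries. Over 16 alternatives, the medians of the ATF4 targets and of the ER genes and their difference moved by less than the SD pooled over both groups, in which the siHnrnpd libraries weigh most (SD of the list means 0.23 for either arm in siHnrnpd, 0.035 and 0.055 in control). Against the control SD both medians moved further, to 0.012 and -0.0011 without siHnrnpd 1 and to 0.20 and 0.22 without siHnrnpd 3. 552 of 590 member values kept their sign. Pdia4 was -6.2e-04 with DESeq2, -0.0010 with limma-voom, -0.0010 with no filter, -0.0050 with at least 50 counts in 3 libraries and -8.9e-04 with the block, and Pdia6 was -0.0018 with at least 50 counts in 3 libraries. The other sign changes came from leaving out 1 library, where values ran from -0.13 to 0.052 for Ddit4, from -0.072 to 0.21 for Asns, from -0.066 to 0.11 for Sesn2, from -0.081 to 0.064 for Mthfd2, from -0.084 to 0.0065 for Cebpg, from -0.058 to 0.29 for Vldlr, from -0.10 to 0.041 for Gars, from -0.012 to 0.15 for Wars, from -0.028 to 0.21 for Hsp90b1, from -0.12 to 0.26 for Dnajb9, from -0.058 to 0.072 for Pdia4, from -0.036 to 0.043 for Pdia6, from -6.6e-04 to 0.28 for Creld2, from -0.039 to 0.16 for Manf, from -0.033 to 0.24 for Hyou1, from -0.11 to 0.042 for Sel1l, from -0.089 to 0.035 for Atf4 and from -0.040 to 0.15 for Eif2ak3. The cause was not tested. Depth limited Vldlr most, where counting error alone gave 12.8% at its lowest count, 61 in siHnrnpd 3.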
